A study of Rattus norvegicus with 24 samples.

Results

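The guide arms of the miR-17/miR-92a and miR-106b/miR-25 clusters were examined in INS1 cells, an insulin-secreting rat insulinoma line used in place of β-cells. A guide arm is the strand of a miR hairpin that is mostly loaded into the silencing complex. The members were chosen by name, although earlier results of these data were known: rno-miR-17-5p, rno-miR-18a-5p, rno-miR-19a-3p, rno-miR-20a-5p, rno-miR-19b-3p and rno-miR-92a-3p from miR-17/miR-92a, and rno-miR-106b-5p, rno-miR-93-5p and rno-miR-25-3p from miR-106b/miR-25. The species prefix rno is left out from here on. They make up 9 of the 758 rat miRs on the one-colour Agilent arrays. The 24 arrays fall into 8 groups of 3. At each of 6 h and 24 h there were untreated cells (Ctrl), cells given 150 pg/ml IL-1β with 0.1 ng/ml IFN-γ (Cyt), cells given 125 nM Givinostat without cytokines (Giv_Ctrl), and cells given Givinostat 1 h before the same cytokines (Giv_Cyt). Givinostat is a broad inhibitor of lysine deacetylases (KDACi), and both cytokines together are toxic to β-cells. All groups are of the same cell line, so no group stands for primary islets. The text deposited with the series calls the 3 arrays of a group technical replicates whereas the paper calls them replicates. The errors given here may therefore leave out the variation between independent cultures. In RNA from a whole culture, fewer cells that express a miR and less of it per cell cannot be told apart.

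Both clusters are polycistrons, in which several miR hairpins are cut from the same primary transcript, and they descend from a common ancestor. The miR-17/miR-92a transcript is induced by MYC and E2F factors, is amplified in some lymphomas, and favours proliferation and survival through repression of targets such as Cdkn1a and the pro-apoptotic Bcl2l11. The miR-106b/miR-25 hairpins lie within Mcm7, a gene for a subunit of the replicative helicase, and are expressed together with it. A miR finds its targets mainly through its seed, bases 2 to 8 from the 5′ end, so members of different clusters with the same seed are thought to share many targets.

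The 9 mature sequences, taken from RefSeq (assembly GRCr8), carried 4 different seeds and are shown by seed because this grouping cuts across the clusters. The seed is in capitals.
miR-17-5p: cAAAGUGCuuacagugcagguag
miR-20a-5p: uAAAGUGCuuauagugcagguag
miR-106b-5p: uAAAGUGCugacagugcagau
miR-93-5p: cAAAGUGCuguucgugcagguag
miR-18a-5p: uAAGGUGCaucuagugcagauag
miR-19a-3p: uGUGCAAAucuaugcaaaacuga
miR-19b-3p: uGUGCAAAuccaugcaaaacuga
miR-92a-3p: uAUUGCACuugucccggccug
miR-25-3p: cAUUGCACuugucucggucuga
The first 4 share the miR-17 seed and come from both clusters, as do the last 2, which share the miR-25 seed. Among the 9 members, the miR-18 and miR-19 seeds occur in those of miR-17/miR-92a alone. Read from the 5′ end, miR-93-5p and miR-17-5p were identical at 19 of 23 bases, and the differences were U10G, A11U, C12U and A13C (miR-17-5p first). miR-93-5p and miR-106b-5p, from the same cluster, were identical at 16 of 21 bases. miR-19a-3p and miR-19b-3p differed at a single position (U11C).

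In GRCr8 the 6 guide arms of miR-17/miR-92a lie at chr15:98587861-98588622 on the plus strand, within 762 bases. Of these, miR-17-5p, miR-19b-3p and miR-92a-3p have a second identical copy at chrX:137342945-137343637 on the minus strand, in a paralogous cluster, so an array cannot tell the copies apart. The 3 guide arms of miR-106b/miR-25 lie at chr12:22156652-22157123 on the minus strand, within 472 bases and inside Mcm7 (chr12:22155921-22163320).

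The β-cell label was checked on marker miRs. The β-cell miRs miR-375-3p and miR-7a-5p were well above background on all 24 arrays, where a miR counts as such when at least 8 of its 16 spots carry the scanner software's mark. Of 7 miRs that mark liver, muscle or blood cells, 5 were well above background on no array, whereas the muscle miR miR-1-3p was on 3 arrays and miR-206-3p on all 24, at a log2 level of 6.55 to 7.5. No spot was saturated. The arrays differed in brightness, taken as the upper quartile of processed intensity among the 117 miRs detected on each of the arrays. It was 596 to 1003 in 24h_Cyt and 487 to 571 in 24h_Giv_Cyt, against 271 to 347 in 24h_Ctrl and 303 to 452 in 24h_Giv_Ctrl. At 6 h it lay between 279 and 416, apart from 682 on replicate 1 of 6h_Giv_Ctrl. The arrays came from 4 slides. All 24h_Ctrl arrays were on slide 4, replicates 1 and 2 of 24h_Cyt were on slide 1 and replicate 3 was on slide 2.

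The clusters separated at the level of detection on this array. None of the 6 guide arms of miR-17/miR-92a was well above background on any of the 24 arrays, while all 3 guide arms of miR-106b/miR-25 were on every array, with 16 of 16 spots marked each time. The unnormalized intensity of a member is given here as the mean over its spots taken on the log2 scale. Over the 24 arrays miR-18a-5p ranged from 39.8 to 55.9, miR-19a-3p from 39.9 to 55.4, miR-19b-3p from 41.5 to 55.9 and miR-92a-3p from 41.7 to 56.6. These 4 did not exceed the median of the 434 negative-control spots on any array. That median was itself 45.0 to 61.0. The highest values of all 4 came from replicate 2 of 24h_Giv_Cyt, the array with the highest negative-control median. miR-17-5p (43.4 to 62.8) exceeded the negative-control median on 10 arrays and its 95th percentile on none. Of the 384 spots of miR-17-5p over all arrays, 0 carried the mark. Non-detection was common, as 534 miRs of the whole array were well above background on no array. The paper used miR-423 as a qRT-PCR reference in INS1 cells. Here miR-423-3p was well above background on 0 arrays and miR-423-5p on 1. Whether the background signal of miR-17/miR-92a comes from the cells or from the probes was not tested.

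miR-20a-5p exceeded the negative-control median on 22 arrays, and over all arrays it stood at 0.952 to 1.63 times that median, and 3 of its 384 spots were marked. Its highest value, 78.4 on replicate 2 of 6h_Cyt, held 1 spot of 35658 among 16 spots with a median of 52.0. That spot was marked as non-uniform and as an outlier by the scanner software. On the other 23 arrays miR-20a-5p lay between 45.7 and 65.4, and no member of miR-17/miR-92a had a level that could be compared between groups. By contrast miR-106b-5p was at 7.17 to 33.3 times the negative-control median, miR-93-5p at 6.49 to 17.5 times and miR-25-3p at 4.05 to 15.7 times.

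**Figure D1:**
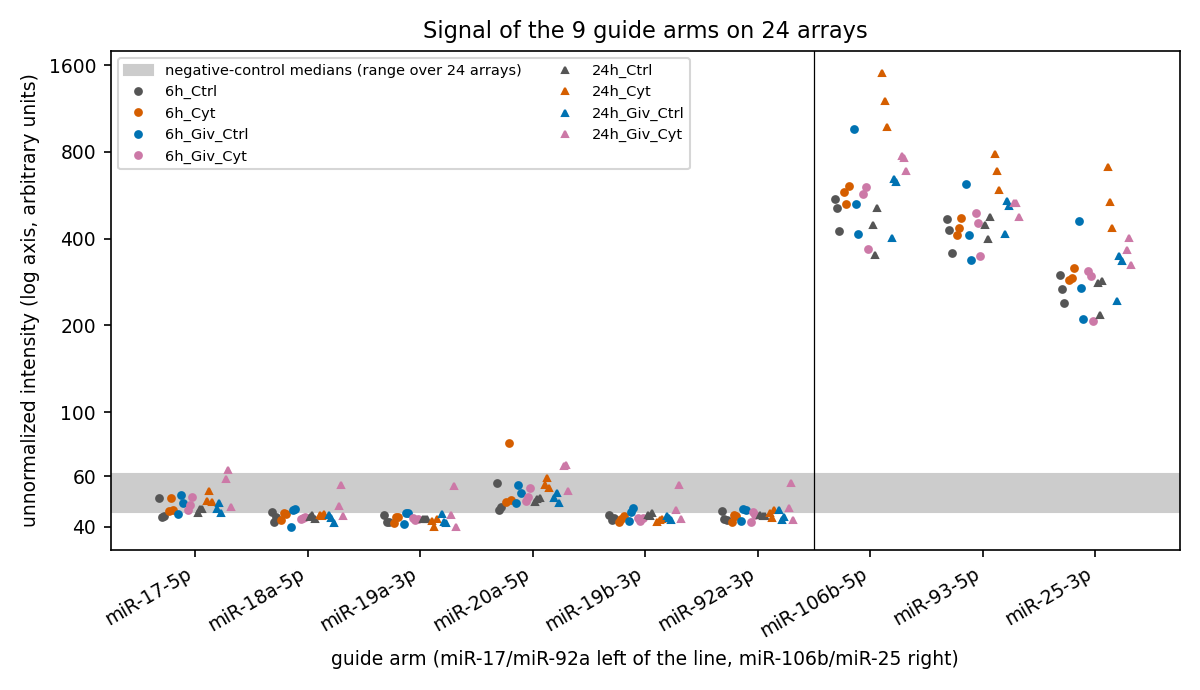
Unnormalized intensity (log axis) of each guide arm on the 24 arrays, 3 points per group, with the range of the negative-control medians (45.0 to 61.0) as a grey band. The 6 miR-17/miR-92a arms sit in or below the band apart from a few arrays of miR-17-5p and miR-20a-5p, and the 3 miR-106b/miR-25 arms lie above 200 on every array.

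By seed, 2 of 4 members with the miR-17 seed and 1 of 2 with the miR-25 seed were detected, in each case those of miR-106b/miR-25, and none with the miR-18 or miR-19 seed. The array held 4 seed-sharing miRs outside both clusters by the RefSeq sequences that were found for 685 of the 758 miRs, namely miR-20b-5p, miR-363-3p, miR-92b-3p and miR-32-5p, and all 4 were well above background on no array.

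The probes of the members were complementary to the 3′ part of each miR, and none of them matched another member over its full length. The longer probes of miR-93-5p, miR-17-5p and miR-20a-5p are shown because they start with the same 10 bases, here in capitals, while miR-93-5p alone was detected.
miR-93-5p: CTACCTGCACgaacag
miR-17-5p: CTACCTGCACtgtaag
miR-20a-5p: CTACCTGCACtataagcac
All 384 spots of miR-93-5p were marked as well above background, against 0 of 384 for miR-17-5p and 3 of 384 for miR-20a-5p.

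The hairpins also give a passenger arm, the strand that is mostly degraded. Of the 16 other arms of both clusters and arms of the paralogous cluster on the array, 15 were well above background on no array, including the passenger arms of all 3 miR-106b/miR-25 hairpins. The exception was miR-18a-3p, which was well above background on all 24 arrays with 8 to 16 marked spots, although its intensity of 59.6 to 140 was 1.26 to 2.86 times the negative-control median. Its guide partner miR-18a-5p was at background on the same arrays. The group means of the log2 level of miR-18a-3p ran from 6.33 ± 0.11 (SD, n = 3) in 24h_Cyt to 6.46 ± 0.10 in 24h_Giv_Cyt. None of the 16 arms was called in any of the 12 comparisons or 3 interaction terms.

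Changes between groups were tested on the quantile-normalized log2 level with limma, and a miR was called at an adjusted p below 0.05 and a change of more than 1.1-fold (log2FC of 0.14). Only miR-93-5p was called among the members, and it was lower with cytokines at 24 h, both without and with Givinostat. Its log2 levels were 9.15, 9.02 and 9.18 in 24h_Ctrl and 8.65, 8.68 and 8.83 in 24h_Cyt. All arrays with cytokines were thus below all control arrays. The mean fell by 0.40 on the log2 scale (SE 0.07, adjusted p = 0.0021, limma), a fold of 0.758. Of the qRT-PCR references of the paper, let-7c-5p gave -0.38 (SE 0.11, adjusted p = 0.045, limma) between the same groups, which meets the rule for a call. The paper states that let-7c was tested for stability under cytokines, and reports it as stable in rat islets after 24 h. For miR-103-3p the difference on the arrays was -0.19 (SE 0.11, adjusted p = 0.31). In this comparison 3.96% of all miRs were called, 1.32% as lower, and the share called was 13.7% among the 168 miRs detected throughout 1 group or more. The groups failed to overlap for 47.9% of the 117 miRs detected on each of the arrays and were lower without overlap for 23.1%, so non-overlap was common here.

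With Givinostat present, the levels of miR-93-5p were 9.03, 8.98 and 9.19 in 24h_Giv_Ctrl and 8.61, 8.68 and 8.77 in 24h_Giv_Cyt. Again the groups did not overlap, as for 17.9% of the miRs detected on each of the arrays, 12.8% with lower levels. The mean fell by 0.38 (SE 0.07, adjusted p = 0.0082, limma), a fold of 0.771. Here let-7c-5p gave -0.15 (SE 0.11, adjusted p = 0.57) and miR-103-3p -0.21 (SE 0.11, adjusted p = 0.44, limma). miR-93-5p was among the 4 miRs called, which were 0.528% of all miRs (0.264% called as lower) and 2.38% of the 168 detected ones. Leaving out replicate 1 of 24h_Giv_Cyt gave -0.34 with an adjusted p of 0.057. The cytokine effects with and without Givinostat differed by 0.02 (SE 0.10, adjusted p = 0.99, limma).

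At 6 h the cytokine comparisons of miR-93-5p were -0.08 (SE 0.07) without and 0.09 (SE 0.07) with Givinostat, and its levels overlapped between groups. The cytokine effect at 24 h was 0.32 lower than at 6 h (SE 0.10). Its unadjusted p of 0.0049 did not survive adjustment (adjusted p = 0.28, limma), so that a different effect at the 2 times was not shown. In order of their means, the groups ran from 24h_Giv_Cyt (8.69 ± 0.08, SD, n = 3) and 24h_Cyt (8.72 ± 0.10) through the 6 h groups, 6h_Giv_Ctrl (8.83 ± 0.05), 6h_Cyt (8.90 ± 0.07), 6h_Giv_Cyt (8.92 ± 0.10) and 6h_Ctrl (8.98 ± 0.10), to 24h_Giv_Ctrl (9.07 ± 0.11) and 24h_Ctrl (9.12 ± 0.09). The arrays of neighbouring groups in this order overlapped in every case. No 24 h group was called against its 6 h counterpart. The difference was -0.17 between 24h_Cyt and 6h_Cyt (SE 0.07, adjusted p = 0.24, limma) and 0.14 between 24h_Ctrl and 6h_Ctrl (SE 0.07, adjusted p = 0.83). Between 24h_Giv_Cyt and 6h_Giv_Cyt it was -0.23 (SE 0.07, adjusted p = 0.23, limma).

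miR-106b-5p, which shares the seed and the primary transcript of miR-93-5p, had levels of 9.1, 9.01 and 9.34 in 24h_Ctrl and 9.55, 9.41 and 9.53 in 24h_Cyt. Here the cytokine arrays lay above the controls, by 0.35 (SE 0.13), and the difference did not pass the test (adjusted p = 0.11, limma). With array brightness as a covariate the difference was 0.04 (SE 0.19, adjusted p = 0.94, limma). With Givinostat the levels were 9.09, 9.21 and 9.41 in 24h_Giv_Ctrl against 9.14, 9.29 and 9.38 in 24h_Giv_Cyt, which overlapped, and the difference was 0.03 (SE 0.13, adjusted p = 0.92). Over the 8 groups the mean of miR-106b-5p stayed between 9.15 and 9.49.

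miR-25-3p, the miR-106b/miR-25 arm with the other seed, had levels of 8.43, 8.21 and 8.38 in 24h_Ctrl and 8.54, 8.32 and 8.39 in 24h_Cyt, an overlap with a difference of 0.07 (SE 0.12, adjusted p = 0.74, limma). With array brightness as a covariate that difference was -0.31 (SE 0.16, adjusted p = 0.38, limma). In 24h_Giv_Cyt the levels of miR-25-3p were 8.02, 8.22 and 8.15, against 8.26, 8.35 and 8.51 in 24h_Giv_Ctrl. These did not overlap, and the difference of -0.24 (SE 0.12) had an adjusted p of 0.43. The same 24h_Giv_Cyt arrays were also below all 24h_Cyt arrays, by 0.29 (SE 0.12), with an unadjusted p of 0.028 and an adjusted p of 0.91 (limma). In that comparison 17.9% of the miRs detected on each of the arrays were lower without overlap.

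**Figure D2:**
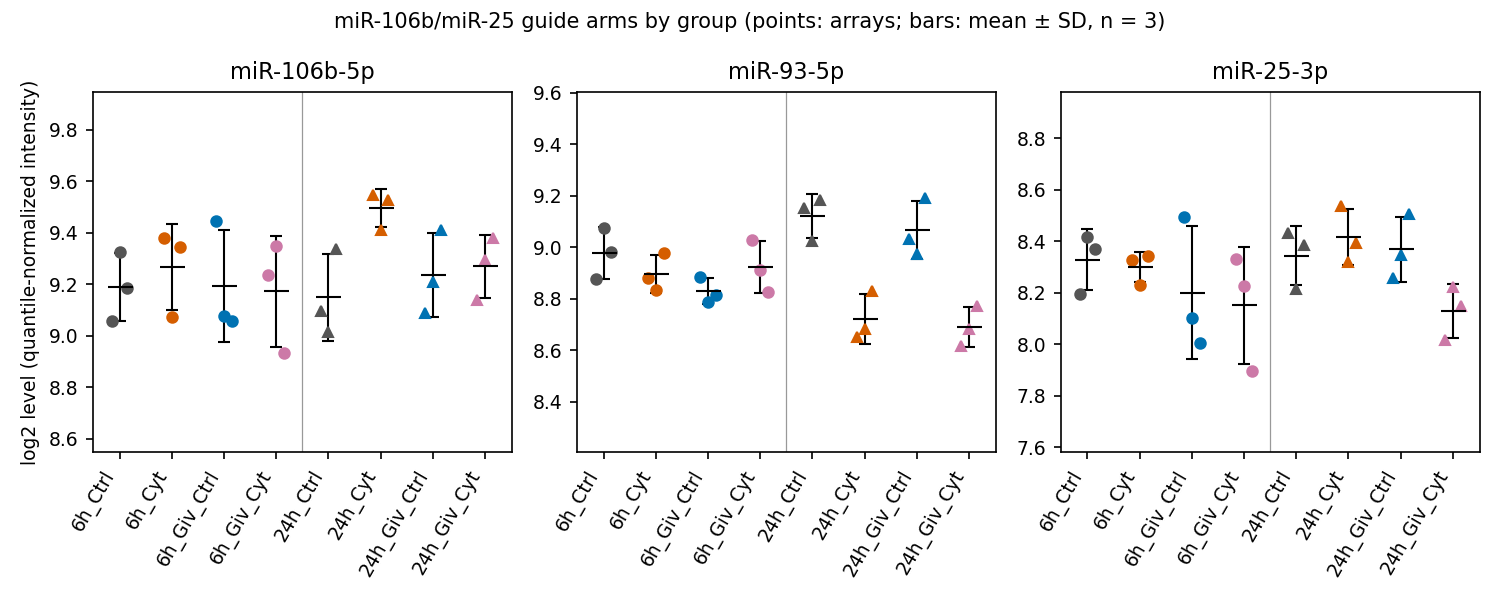
Quantile-normalized log2 level of the 3 miR-106b/miR-25 guide arms in the 8 groups, with a point per array and bars for mean ± SD (n = 3). For miR-93-5p the 6 arrays with cytokines at 24 h lie between 8.61 and 8.83 and the 6 arrays without them at 24 h between 8.98 and 9.19, whereas miR-106b-5p is highest in 24h_Cyt.

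Givinostat without cytokines was not followed by a called change in any member. For miR-93-5p the difference was -0.15 (SE 0.07, unadjusted p = 0.048, adjusted p = 0.98, limma) at 6 h and -0.05 (SE 0.07) at 24 h. Added to cytokines at 24 h, Givinostat came with a difference of -0.03 (SE 0.07) in miR-93-5p and -0.23 (SE 0.13) in miR-106b-5p, neither called. The cytokine effect with Givinostat was below that without it by 0.31 for both miR-106b-5p (SE 0.18, adjusted p = 0.88) and miR-25-3p (SE 0.17, adjusted p = 0.86), which did not pass the test. Without cytokines, miR-93-5p was higher at 24 h than at 6 h with Givinostat by 0.24 (SE 0.07, adjusted p = 0.40).

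Over all 15 tests of each of the 9 members, 135 in number, 2 were called by limma and 11 (8.15%) had an unadjusted p below 0.05, against 822 of 11370 tests (7.23%) over all miRs. Of these 11, 9 belonged to the 45 tests of the 3 arms of miR-106b/miR-25, and the share over the 117 miRs detected on each of the arrays was 169 of 1755 (9.63%). The 90 tests of miR-17/miR-92a compare background signals. Their differences ranged from -0.16 to 0.16, and from -0.06 to 0.08 without miR-20a-5p, and no fold is read from them. Beside these counts, 0.792% of all miRs were called in 24h_Cyt vs 6h_Cyt, 0.396% in 24h_Giv_Cyt vs 6h_Giv_Cyt, 0.132% in 24h_Giv_Cyt vs 24h_Cyt and 0.528% for the difference of the cytokine effect between 24 h and 6 h. In the 9 remaining tests limma called 0 miRs of the array, with 12 to 39 of 758 at an unadjusted p below 0.05.

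**Figure D3:**
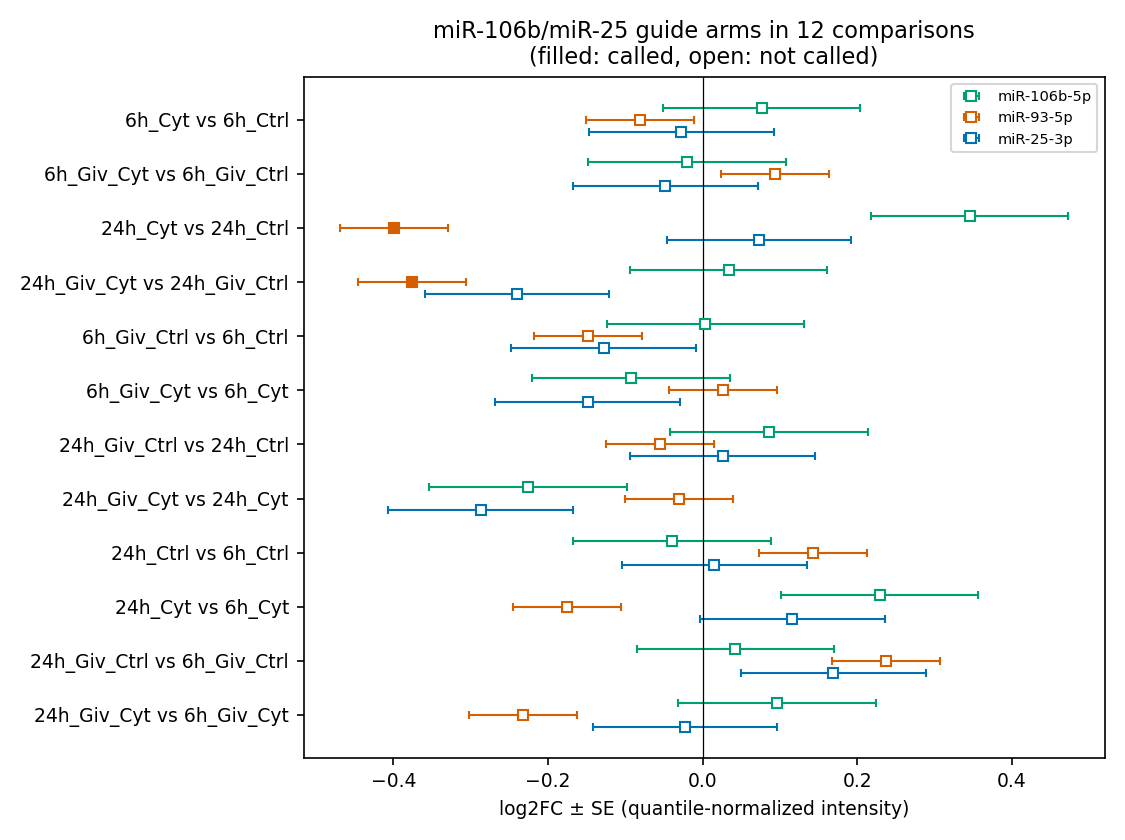
Difference in log2 level (log2FC ± SE) of the 3 detected guide arms in the 12 pairwise comparisons, filled where called and open where not. The filled points are miR-93-5p at -0.40 in 24h_Cyt vs 24h_Ctrl and at -0.38 in 24h_Giv_Cyt vs 24h_Giv_Ctrl.

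Arms cut from the same transcript can also be compared within each array. The values per array were taken on the quantile-normalized levels, and the shifts also on the intensities before normalization. The size of such a difference reflects the probes, and only its change between arrays is read. The within-array difference in log2 level, miR-93-5p minus miR-106b-5p, was 0.06, 0.01 and -0.15 in 24h_Ctrl and -0.89, -0.73 and -0.70 in 24h_Cyt. It was -0.06, -0.23 and -0.22 in 24h_Giv_Ctrl and -0.52, -0.61 and -0.60 in 24h_Giv_Cyt. In both comparisons the groups did not overlap, with a shift of -0.74 without and -0.41 with Givinostat, and of -0.85 and -0.37 in the intensities before normalization. These shifts carry no test, since the pair was singled out after its values were seen. Among the 6786 pairs that can be formed from the 117 miRs detected on all arrays, the within-array difference failed to overlap for 49.7% in 24h_Cyt vs 24h_Ctrl and for 23.5% in 24h_Giv_Cyt vs 24h_Giv_Ctrl.

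At 24 h the arrays with cytokines were also the brighter ones, so the parts of cytokines and brightness in the shift cannot be told apart. Replicate 1 of 6h_Giv_Ctrl had received no cytokines but was bright (682), and its difference between miR-93-5p and miR-106b-5p was -0.56, inside the range of 24h_Giv_Cyt and below the -0.29 and -0.24 of its dimmer replicates (401 and 311). Dimmer arrays with cytokines also reached low differences between miR-93-5p and miR-106b-5p, with -0.50 on replicate 1 of 6h_Cyt (378) and -0.44 on replicate 2 of 6h_Giv_Cyt (374). Without cytokines no dimmer array was below the -0.29 of 6h_Giv_Ctrl. The bright 6h_Giv_Ctrl array was on slide 1 together with the brightest 24h_Cyt arrays. For miR-93-5p minus miR-25-3p the value was 0.39 on that array, within the 0.12 to 0.44 of 24h_Cyt, and 0.69 and 0.81 on the other replicates. The log2 level of miR-93-5p itself was not lower on that array, at 8.89 against 8.79 and 8.81 on its replicates. There miR-106b-5p was higher, at 9.44 against 9.08 and 9.06. The level of miR-25-3p on that array, 8.49, was also the highest of its group. With array brightness as a covariate the shift in miR-93-5p minus miR-106b-5p was -0.45 without and -0.30 with Givinostat. With slide as a fixed block it was -0.80 without and -0.44 with Givinostat. The parts of array brightness, slide and cytokines in the shift were not tested. For miR-93-5p minus miR-25-3p the shift was -0.47 without and -0.14 with Givinostat, and -0.44 and -0.18 in the intensities before normalization. For miR-25-3p minus miR-106b-5p the shift was -0.27 in both comparisons, and -0.41 without and -0.19 with Givinostat in the intensities before normalization.

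**Figure D4:**
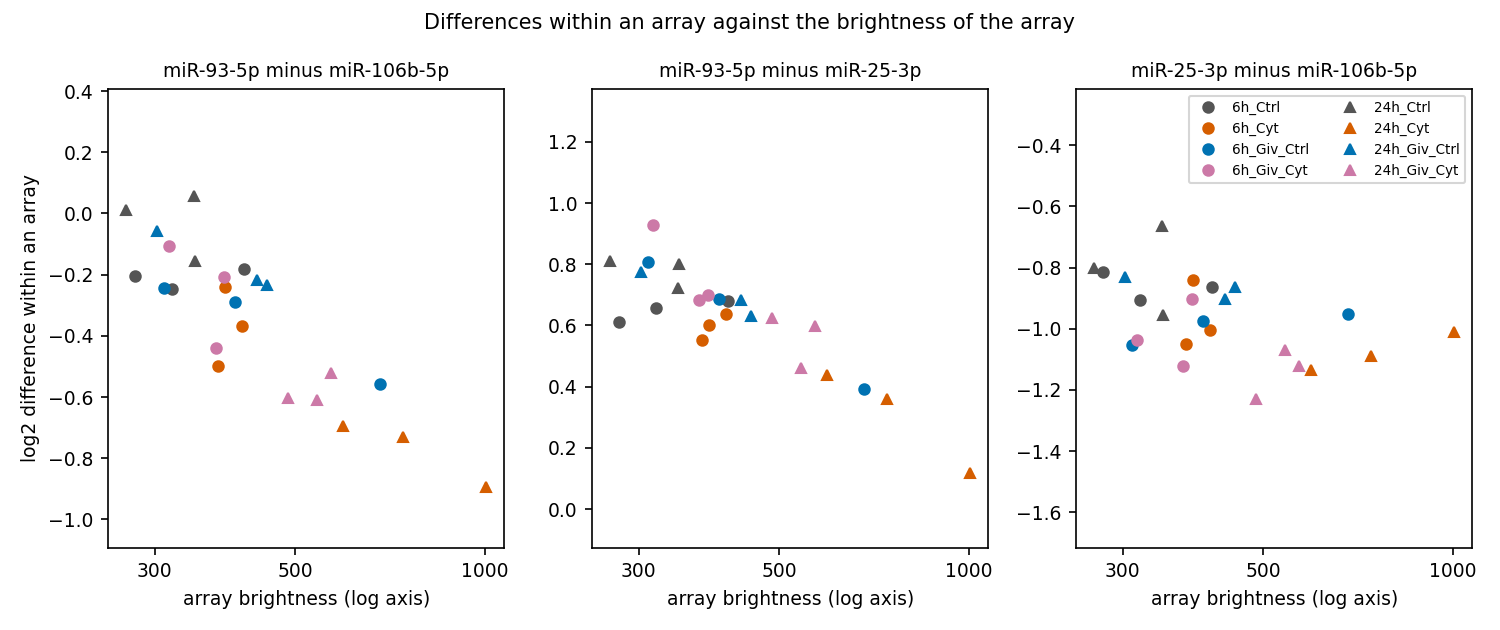
Within-array log2 differences between the 3 detected guide arms (y axis) against array brightness (x axis, log scale, upper quartile of processed intensity), with a point per array coloured by treatment and shaped by time. In the 2 panels with miR-93-5p the 24h_Cyt arrays, at a brightness of 596 to 1003, lie at the lower right, and the bright 6h_Giv_Ctrl array at 682 lies near them.

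Each member was read by 2 probe sequences of 8 spots each, which differ by 1 base at the end that faces the seed. For miR-93-5p the longer probe was brighter than the shorter by 2.0 to 2.44 on the log2 scale, for miR-106b-5p by 1.29 to 1.65 and for miR-25-3p by 2.22 to 2.89. Both probes of miR-93-5p were lower in 24h_Cyt than in 24h_Ctrl, by 0.46 (SE 0.08, adjusted p = 0.0017, limma) for the shorter and by 0.33 (SE 0.08, adjusted p = 0.025) for the longer. With Givinostat present, the shorter fell by 0.46 (adjusted p = 0.0032), and the longer gave -0.29 (SE 0.08) and was not called (adjusted p = 0.17). This gap enters a fit in which all 16 spots count as correlated values, the kind named in the methods. In that fit the log2FC of miR-93-5p was the same but its SE rose to 0.29, and it was not called (adjusted p = 0.43). When the spots of each probe were first centred on their own mean, the same fit called it in both comparisons, with an SE of 0.04. That fit counts the spots of an array as largely separate values (pooled correlation of 0.12), although they share the RNA. Its SE was below the 0.07 of the test on array means, so the call is not read as further support.

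No slide held both 24h_Ctrl and 24h_Cyt arrays, so the decrease of miR-93-5p without Givinostat has no value within a slide. With slide as a fixed block the estimate remained -0.40 but the adjusted p was 0.37, with 1 of 758 miRs called. Without slide 1 a single 24h_Cyt array, replicate 3, was left, which is assumed to vary like the other groups, and the difference was -0.29 (adjusted p = 0.29). With array brightness as a covariate it was -0.41 (adjusted p = 0.11). Under no normalization between arrays the sign turned, to 0.64, the 24h_Cyt arrays being the brighter ones. The comparison with Givinostat was spread over slides 3 and 4, and there the difference was -0.31 within slide 3 (1 array against 2) and -0.38 within slide 4 (2 arrays against 1). It kept its call with slide as a fixed block (adjusted p = 0.044) and with brightness as a covariate (adjusted p = 0.025), and lost it when the compared groups were fitted alone (adjusted p = 0.22).

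**Figure D5:**
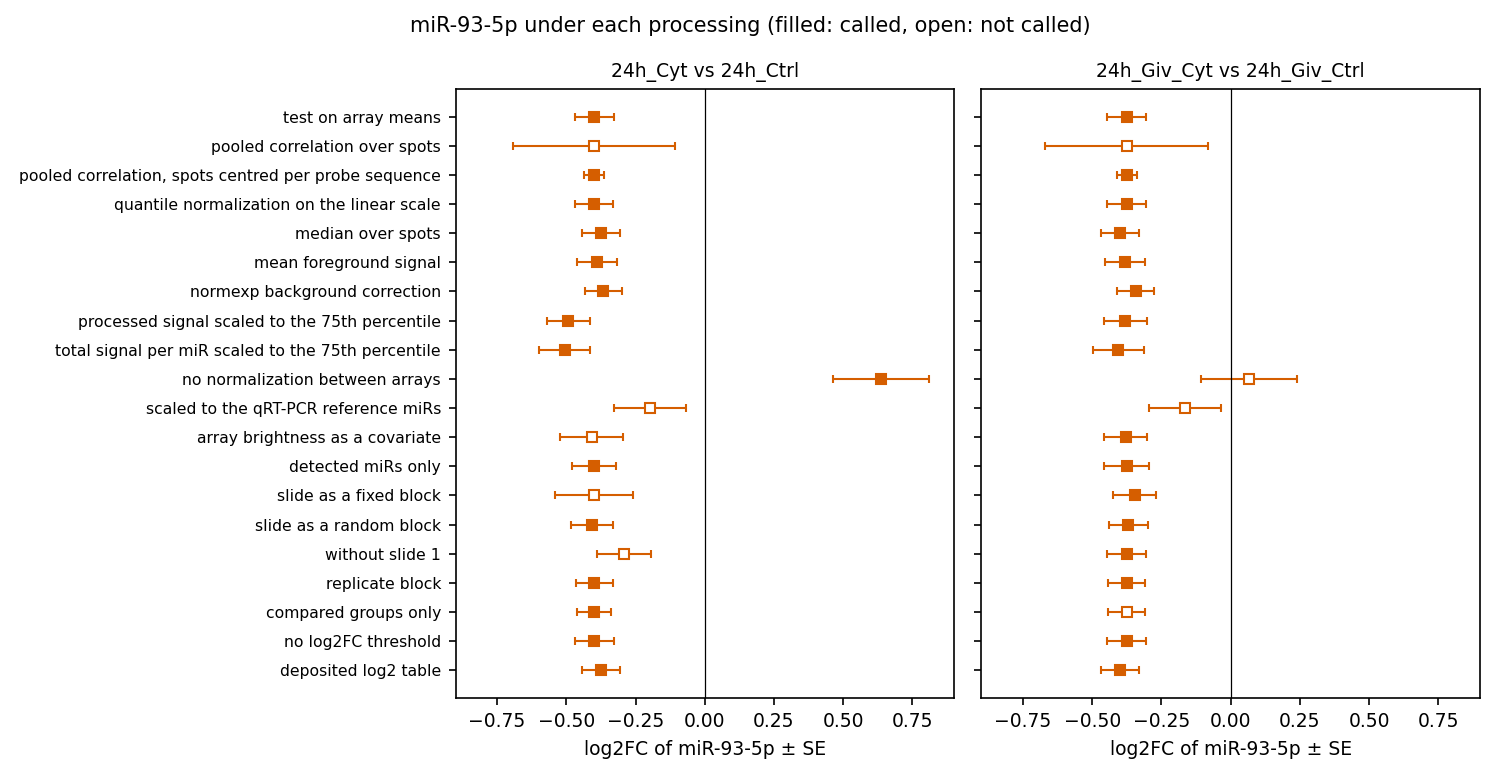
Log2FC ± SE of miR-93-5p in the cytokine comparisons at 24 h under each processing, filled where called. Without Givinostat (left) the estimates lie between -0.51 and 0.64 with the sole positive value under no normalization between arrays, and with Givinostat (right) between -0.41 and 0.07.

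The miRs outside the clusters whose levels over the 24 arrays were most like the mean of the 9 members, each centred, were miR-15b-5p (Pearson r = 0.90), miR-344a-3p (r = 0.86) and miR-151-5p (r = 0.84), all well above background on every array. The arrays share normalization and brightness differences, and the mean includes the 6 members at background. None of the 3 was called in either cytokine comparison at 24 h, with differences between -0.21 and 0.10.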

How the data were processed

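The authors deposited a scanner file per array, with linear, unnormalized spot intensity, and a table of log2 values per miR, already normalized by the authors. Feature Extraction is version 9.1 per the labels and 10.7.3.1 per the file headers. Following the paper's methods, median spot intensity was used with no background correction, control spots were removed, and log2 values were quantile-normalized between arrays. The 16 spots of a miR were averaged, and limma 3.58.1 (R 4.3.3) was fitted to all 24 arrays with a mean per group (16 residual degrees of freedom), so that the array was the unit. The paper's fit, a pooled correlation over spots, was an alternative because spots of an array share the RNA. Benjamini-Hochberg adjustment ran over 758 miRs in each of 12 comparisons and 3 interaction terms. Background signal was not subtracted, so that changes of dim miRs are understated, and 3 arrays per group limit the precision. Members were named by a fixed pattern; beside them stand the other arms, the miRs of the paralogous cluster, seed-sharing miRs and the 3 miRs most alike over the arrays. Members and lists were chosen with earlier results of these data known. On simulated data made for 24h_Cyt vs 24h_Ctrl (758 miRs, 200 changed), 97 of 100 changes of 0.5, all 100 of size 1 and 5 of 558 unchanged miRs were called. The changed miRs were drawn at random from all 758, of which 534 were well above background on no array. The simulated arrays held no slide or brightness differences. These shares therefore do not give the power or error rate for the detected members. Python 3.11.15 and matplotlib 3.10.9 made the figures. Alternatives covered spot summary, signal, background correction, scaling, normalization, brightness, detection, slide, replicate block, fitted groups, thresholds, the deposited table and each array left out. Added after seeing the data were quantile normalization before log2 and the pooled correlation after centring spots per probe. The qRT-PCR and cell experiments were not analysed here.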

Additional observations from a re-analysis of the deposited data

How the results depend on the processing

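The number of members called stayed at 1 (miR-93-5p) in 24h_Cyt vs 24h_Ctrl under 11 of 19 alternatives and in 24h_Giv_Cyt vs 24h_Giv_Ctrl under 14 of 19, although leaving out slide 1 removed no array of the latter comparison. In the former it was 0 with the pooled correlation over spots, brightness as a covariate, slide as a fixed block or slide 1 left out, 2 with the scaled processed signal (87 of 758 miRs called), 3 without normalization between arrays (173 of 758) and 6 when arrays were scaled to the qRT-PCR reference miR-103-3p, which called 572 of 758, moved the median of all miRs by -0.80 and called 5 guide arms at background. Under the reference scaling the other member called in 24h_Cyt vs 24h_Ctrl was miR-106b-5p, which was higher by 0.65 (adjusted p = 0.0026, limma). There miR-93-5p gave -0.20 and was not called (adjusted p = 0.17, limma). In 24h_Giv_Cyt vs 24h_Giv_Ctrl the number called was 0 with the pooled correlation, the reference scaling or the compared groups alone. It was 2 (miR-17-5p and miR-18a-5p, both at background) without normalization, which called 323 of 758. Without normalization the log2FC of miR-93-5p reversed, to 0.64 (adjusted p = 0.013, limma) and 0.066 (adjusted p = 0.71). In 24h_Cyt vs 6h_Cyt, where no member was called, 3 were called without normalization (122 of 758) and 6 with the reference scaling (439 of 758), and for the cytokine effect at 24 h against 6 h, 1 without normalization (51 of 758) and 1 with the processed signal (50 of 758). Centring the spots per probe in the pooled correlation gave 2 members in 24h_Cyt vs 24h_Ctrl, 24h_Giv_Cyt vs 24h_Giv_Ctrl, 24h_Cyt vs 6h_Cyt, 24h_Giv_Cyt vs 24h_Cyt and the interactions of cytokines with Givinostat at 24 h and with time, and 1 in 6h_Giv_Ctrl vs 6h_Ctrl, the other 3 comparisons of 24 h with 6 h and the interaction at 6 h. That fit, which counts spots of an array as largely separate values, called 35 to 87 of 758 miRs in the former tests and 22 to 35 in the latter. The causes were not tested. Leaving out each array in turn left 1 member called in 24h_Cyt vs 24h_Ctrl and 0 to 1 in 24h_Giv_Cyt vs 24h_Giv_Ctrl (0 without replicate 1 of 24h_Giv_Cyt). With the replicate number as a block, 1 member was called in either comparison and 0 in the others. The numbers were not taken to pair the samples. Same-numbered arrays of different groups had correlated deviations of -0.94 to 0.97 (median 0.096, 84 pairs), against a median of -0.019 for differently numbered arrays. With 3 arrays per group these values cannot exclude a pairing.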
